A study of Homo sapiens with 24 samples.

Results

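The experiment described here is a single 2-colour array of PC3, a human prostate carcinoma cell line from a bone metastasis, transfected with miR-23b. RNA of the miR-23b transfectants was labelled with Cy5 and RNA of control miRNA transfectants of the same line with Cy3, so a log2 ratio above 0 means a higher signal after miR-23b. It is 1 of 24 arrays in the series and 1 of 16 on its probe design, and no array with the dyes exchanged was analysed here. The arrays of miR-24, miR-27b and miR-145 in PC3, each 1 array against control miRNA on the same design, serve as background. All of these groups share transfection with Lipofectamine RNAiMAX, culture in RPMI 1640 or DMEM and Trizol extraction, and the labels give neither dose nor time. The labels give no number of cultures behind a channel and there is no repeat array, so there is no spread between cultures, no test was made, and genes are named by the size of the ratio. The value after ± is the error that the scanner software gives a ratio on the log2 scale, which covers spot and dye noise within this array.

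miR-23b is made from a cluster on chromosome 9 that also holds miR-27b and miR-24, and in the prostate it is known as a miRNA whose level falls in tumours. A miRNA loads into Argonaute and pairs with mRNAs mainly through bases 2 to 8 of its 5′ end, the seed, after which the paired mRNA is translated less and often degraded. An mRNA with a perfect seed match followed by an A is the type of site known to be lowered most. The sequences below are shown because the results turn on their seeds, which are in capitals (RefSeq, GRCh38.p14).
miR-23b-3p, chr9:95085265-95085287, plus strand: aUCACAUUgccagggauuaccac
miR-27b-3p, chr9:95085505-95085525, plus strand: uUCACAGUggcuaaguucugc
miR-24-3p, chr9:95086064-95086085, plus strand: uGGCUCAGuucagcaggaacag
miR-145-5p, chr5:149430661-149430683, plus strand: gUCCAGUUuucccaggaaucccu
miR-23b and miR-27b differ at 1 of the 7 seed bases, whereas miR-23a-3p and miR-23c have the same seed as miR-23b. The labels do not say which arm of the precursor was added, and the 3p arm is used here.

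The array held 58717 spots for 42405 probes outside the controls. Signals stood well above background at 58.1% of spots in the control channel and 64.6% in the miR-23b channel, 546 carried an outlier flag and were left out, and none was saturated. A probe was kept when at least 0.5 of its spots were well above background in either channel, and a gene was given the value of its brightest kept probe, which left 14913 genes. In 693 probes with 5 to 10 usable spots, the SD of the log2 ratio between spots had a median of 0.06. The label of the cell line was checked in the control channel, beside an LNCap array of the same design, LNCap being a prostate line that responds to androgen. KLK3, the gene of prostate-specific antigen, read 9.17 here, not well above background, and 123000 in LNCap. Of the 8 androgen markers listed, 6 were detected here, none above 1640, and 8 in LNCap, none below 2360. All 8 markers listed for PC3, among them the mesenchymal gene VIM, were detected here, with a median signal of 13785. In LNCap 7 of the 8 were detected, with a median of 459.5, so detection alone does not separate the lines. Of 11 marker genes of blood, endothelial and fibroblast cells with a probe, 6 were detected here and 5 on each of the other 3 PC3 arrays. In such bulk RNA, fewer cells of a type and less RNA per cell cannot be told apart.

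The array does not measure the mature miRNA that was added. AOPEP, the host gene of the cluster, had a log2 ratio of -0.25 ± 0.21 on the miR-23b array, with 0.42, 0.06 and -0.38 on the miR-24, miR-27b and miR-145 arrays. MIR23AHG, the transcript of the sister cluster on chromosome 19, had -0.14 ± 0.21. Neither was past 0.5 in either direction on any of these arrays.

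On the miR-23b array, 778 genes had a log2 ratio at or below -1, which is 5.22% of the genes measured, and 901 were at or above 1, which is 6.04%. At the smaller limit of 0.5, 2145 genes (14.4%) were lower and 2808 (18.8%) higher. The higher genes were more often dim: among genes well above background in both channels, 618 were lower and 463 higher. With normexp background correction and loess in place of the scanner software's own, 393 were lower and 193 higher, so the higher genes made up 32.9% of those past the limit instead of 53.7%.

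Genes whose probe holds a miR-23b seed match had lower ratios on the array than genes without one. The files hold no transcripts, so matches were sought in the 60-base probes, which have the sense of the mRNA. The word searched was AATGTGA, the complement of the seed read 5′ to 3′, on the probe strand only. It occurred in the brightest probes of 160 genes, 1.07% of those measured, and in 62 of them it was followed by A. The 62 genes with all 8 bases had a median log2 ratio of -0.58 and 17 of them (27.4%) were at or below -1. Genes with the 7 bases but no A after them (98 genes) had a median of -0.26. The median was -0.03 for 87 genes with 6 bases and the A, 0.06 for 182 genes with 6 bases alone, and 0.06 for the 14484 genes with none of these. Thus the median was lowest with 8 bases and next lowest with 7 bases and no A. The 2 kinds with 6 bases lay close to the genes without a match.

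**Figure D1:**
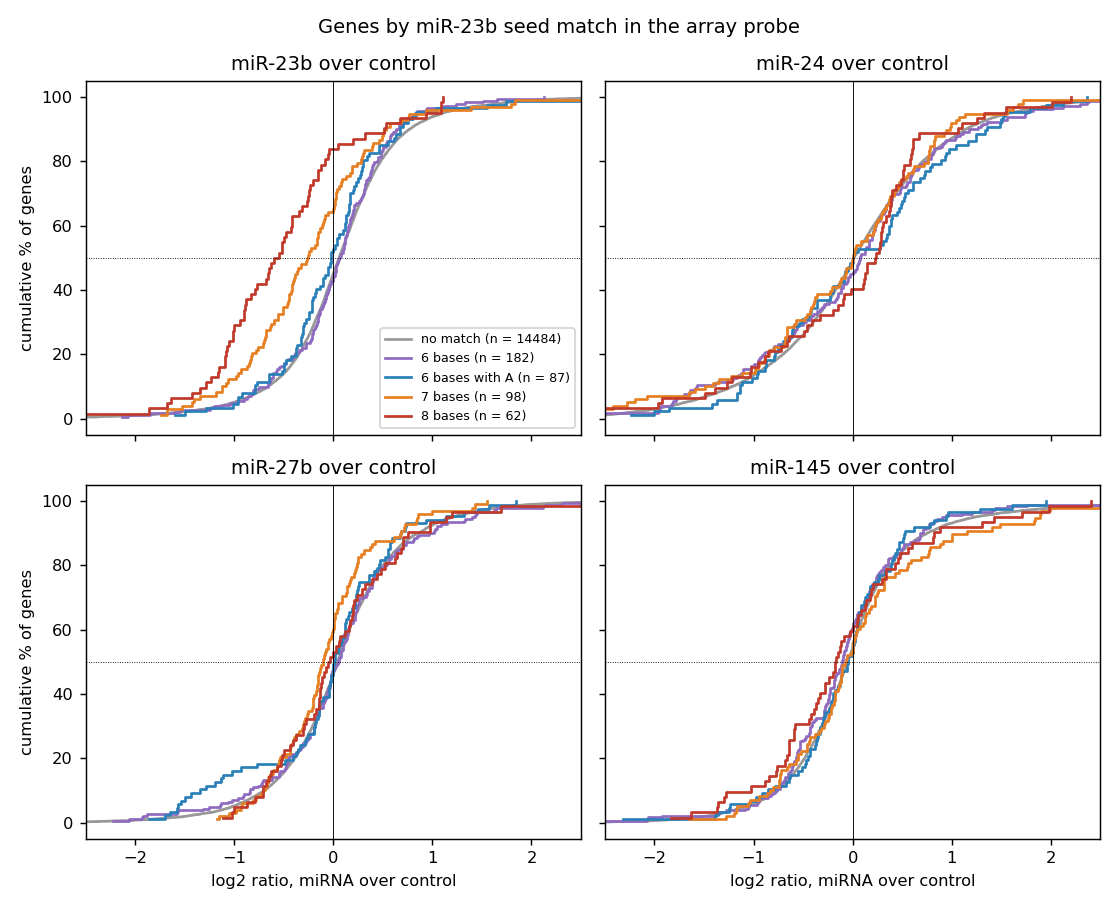
Cumulative percentage of genes (vertical axis) against log2 ratio of miRNA over control (horizontal axis) on the 4 PC3 arrays, 1 panel each, with the outer ends of the ratios not drawn; lines group genes by the longest match to the miR-23b seed in their brightest probe. On the miR-23b array the lines for 8 bases (62 genes, median -0.58) and 7 bases (98 genes, median -0.26) lie left of the grey line of 14484 genes without a match; on the other arrays the 8-base line has medians of 0.23, -0.04 and -0.18.

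The same 62 genes had medians of 0.23 on the miR-24 array, -0.04 on the miR-27b array and -0.18 on the miR-145 array. At or below -0.5 were 35 of the 62 (56.5%) on the miR-23b array and 16, 14 and 19 on the other arrays, against 26.1%, 15.7% and 19.5% of all genes there. Genes with the reverse complement of the word in the probe (89 genes) had a median of 0.07 on the miR-23b array. The seed words of the other miRNAs did not have low medians on this array: 0.01 for miR-24 (87 genes), 0.03 for miR-27b (123 genes) and -0.01 for miR-145 (111 genes). On their own arrays those words had medians of -0.34, -0.26 and -0.24. All 1511 words of 7 bases held by the probes of at least 100 genes were ordered by their median on the miR-23b array. The miR-23b word came lowest at -0.41, and the next was at -0.22. ATGTGAA (149 genes) had that next median and overlaps the miR-23b word, without its leading base and with the A after it. A match in a probe shows that the word is in the transcript but not whether the site is in a 3′ UTR, and sites outside the probe were not seen.

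The stretches below are the 30 bases around the match in the probes of 6 genes with low ratios, with the matching bases in capitals; positions are those of the whole probe on hg19. PARL, MCFD2, LONRF3 and HLA-J are the genes with a match that were also set apart as lower, as described further on. Of the genes set apart, 4 of 173 lower (2.31%) and 2 of 87 higher (2.3%) held a match, against 1.07% of all genes. COL6A3 and NUAK1 are further examples of the 8-base match.
PARL, chr3:183547190-183547249, minus strand: gtgtctttttagAATGTGAAtgatgataaa
COL6A3, chr2:238234204-238234263, minus strand: gatcacagaaagAATGTGAAaaggtttgcg
NUAK1, chr12:106457546-106457605, minus strand: gtcttgagtacaAATGTGAAtgatcgactg
MCFD2, chr2:47132547-47132606, minus strand: tggttatatacaAATGTGAcccgtgataat
LONRF3, chrX:118156804-118156863, plus strand: tgttgtaataacAATGTGAtacagacagtt
HLA-J, chr6:29977388-29977447, plus strand: gtctgtgtccctataggcatAATGTGAggt
PARL, a rhomboid protease of the inner mitochondrial membrane, had a control signal of 7660 and a miR-23b signal of 3150, a log2 ratio of -1.28 ± 0.24. On the miR-24, miR-27b and miR-145 arrays it had 0.31, -0.17 and -0.18, and its 2 probes on the miR-23b array gave -1.49 and -1.28. COL6A3, a chain of type VI collagen, was at -1.68 ± 0.26 on the miR-23b array, between -0.41 and 0.17 on the arrays of miR-24 and miR-27b, and at -1.63 on the miR-145 array. NUAK1, a kinase related to AMPK, was at -1.24 ± 0.23 and had 0.61, -0.63 and -1.83 on the others. PARL was thus low on the miR-23b array alone, while COL6A3 and NUAK1 were also low on the miR-145 array.

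VEGFA, the endothelial growth factor, also held the 8-base match. Its log2 ratio was -1.16 ± 0.23 on the miR-23b array, with -0.08, 0.39 and -1.37 on the miR-24, miR-27b and miR-145 arrays. Its other probe gave -0.60, and the probe with the match spans 412 bases of hg19, so it crosses an exon junction. MT2A, a metallothionein, was at -1.64 ± 0.25 with the 8-base match, and had -1.04, 1.13 and 1.43 on the other arrays. Of the 160 genes, 21 were zinc finger genes, a family whose repeats are alike in sequence, so that some of these probes can share transcripts. Their median was -0.51 on the miR-23b array, against -0.01 for 460 zinc finger genes without the word, and the other 139 genes with a match had a median of -0.38.

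Genes reported elsewhere as targets of miR-23b or miR-23a were also lower as a list. Of 40 listed genes, 36 were measured; MTSS1, PPARGC1A, SEMA6A and TRIM63 were not well above background. Their median log2 ratio was -0.48 on the miR-23b array, against 0.05 over all genes, and 0.00, -0.11 and -0.04 on the miR-24, miR-27b and miR-145 arrays. On the miR-23b array 18 of the 36 were at or below -0.5 and 4 at or above 0.5, against 14.4% and 18.8% of all genes. On the miR-24, miR-27b and miR-145 arrays 9, 11 and 12 were at or below -0.5, against 26.1%, 15.7% and 19.5% of all genes, so the miR-24 share was close to its background. At or below -1 on the miR-23b array were 9 of the 36, against 5.22% of all genes. The list was written from general knowledge with earlier results of these data known, so it is no independent evidence of its direction. FBXO32 and TAB3 were the only members whose measured probe held the seed word.

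**Figure D2:**
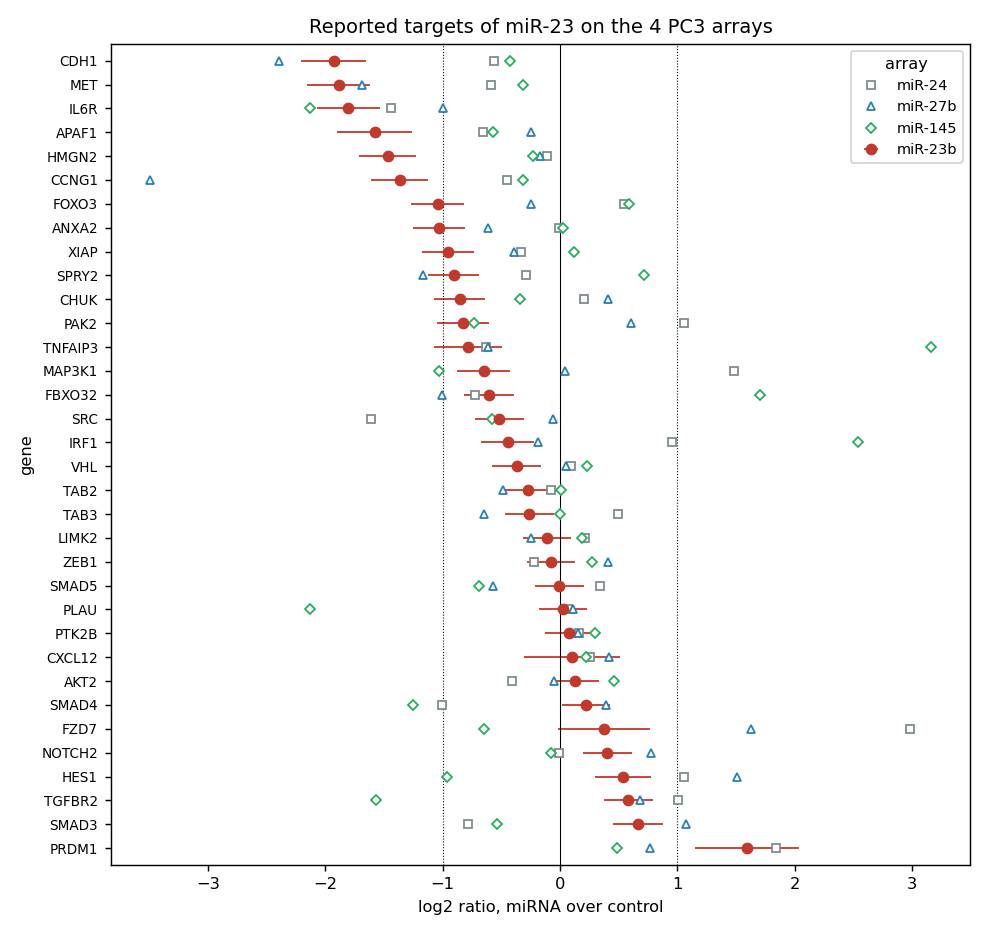
Log2 ratio of miRNA over control (horizontal axis) for 34 of the 36 measured genes of the miR-23 target list (vertical axis), sorted by the miR-23b array; filled red circles are the miR-23b array with the software's error, open symbols the other PC3 arrays, and dotted lines mark -1 and 1. Of the 34 drawn, 16 lie at or below -0.5 on the miR-23b array and 4 at or above 0.5.

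With members kept only where the control signal was within 1 of the slide's other miRNA arrays, a setting chosen after seeing the data, the median of the list was -0.44.

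Among adhesion and receptor genes of the list, CDH1, the E-cadherin of epithelial junctions, was at -1.93 ± 0.27 on the miR-23b array and at -0.57, -2.39 and -0.43 on the miR-24, miR-27b and miR-145 arrays. MET, the receptor of hepatocyte growth factor, had signals of 36600 in the control and 9880 after miR-23b, a log2 ratio of -1.89 ± 0.27. Its values were -0.59, -1.69 and -0.32 on the other arrays. CDH1 and MET were thus low after both miR-23b and miR-27b and nearer 0 after the other miRNAs. IL6R, a subunit of the interleukin-6 receptor, was at -1.80 ± 0.27 and below -0.9 on all 4 arrays. ANXA2, a surface receptor for plasminogen, was at -1.03 ± 0.22 by its brightest probe and at -1.08 by the other, with -0.01, -0.62 and 0.03 on the other arrays.

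Among regulators of growth and death, APAF1, the scaffold of the apoptosome, was at -1.58 ± 0.32 but at -0.60 with normexp and loess, with -0.66, -0.25 and -0.57 on the miR-24, miR-27b and miR-145 arrays. XIAP, a caspase inhibitor, was at -0.96 ± 0.22, with -0.33, -0.39 and 0.12. CCNG1, cyclin G1, was at -1.37 ± 0.24 here and at -3.50 on the miR-27b array, its lowest value of the 4. HMGN2, a nucleosome-binding protein, was at -1.47 ± 0.24, with signals of 85400 and 30900. Its 4 probes lay between -1.48 and -1.22, and the other arrays gave -0.11, -0.17 and -0.23, so it was low on the miR-23b array alone and by all its probes. FOXO3, a forkhead transcription factor, was at -1.04 ± 0.23 by its brightest probe, but its 3 probes ranged from -1.04 to -0.28. SPRY2, an inhibitor of receptor kinase signalling, was at -0.91 ± 0.22 and at -1.17 on the miR-27b array.

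Other listed genes named whatever their value lay nearer 0. SRC, the tyrosine kinase, was at -0.52 ± 0.21, lower than on the miR-27b array (-0.06), higher than on the miR-24 array (-1.61) and close to the miR-145 array (-0.58). PLAU, urokinase, was at 0.02 ± 0.20 with signals of 56500 and 57400. AKT2, a kinase downstream of PI3 kinase, was at 0.13 ± 0.20, with 3 probes from -0.52 to 0.13. For PLAU and AKT2 the ratio was smaller than the software's error.

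At the upper end, PRDM1 was the only member at or above 1, but its control signal did not stand well above background and no fold is given. SMAD3, which carries TGF-beta signals, was at 0.67 ± 0.21, and TGFBR2, a TGF-beta receptor, at 0.58 ± 0.21. HES1 and NOTCH2 of the Notch pathway were at 0.54 ± 0.24 and 0.40 ± 0.21. These members, all reported as targets, were thus above 0 on this array.

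The target lists of the cluster's other miRNAs did not have such a low median here. The miR-27b list (23 of 28 genes measured) had a median of -0.11 on the miR-23b array and -0.60 on the miR-27b array. On the miR-23b array 8 of the 23 (34.8%) were at or below -0.5 and 4 (17.4%) at or below -1, against 14.4% and 5.22% of all genes. In it, WEE1, the kinase that holds CDK1 inactive, was at -1.37 ± 0.24, and VEGFC, a lymphatic growth factor, at -1.45 ± 0.24 against -3.49 and -2.44 on the miR-24 and miR-27b arrays. The miR-24 list (25 of 26 genes) had a median of 0.25 on the miR-23b array and 0.03 on the miR-24 array. Its mitotic members CCNA2 (1.21 ± 0.23, and 0.95 with normexp) and AURKB (0.90 ± 0.22) were higher after miR-23b.

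A gene was counted as set apart when its log2 ratio on the miR-23b array was past 1 in size and at least 1 lower, or at least 1 higher, than on each of the miR-24, miR-27b and miR-145 arrays. There were 173 such genes lower (1.16%) and 87 higher (0.583%). With normexp and loess there were 62 and 10, and with no background subtraction 69 and 10. The same rule with another array in first place gave 991 lower and 623 higher for miR-24, 127 and 121 for miR-27b, and 312 and 529 for miR-145. Probes were kept by their signal on the miR-23b array alone, so these counts are not on equal terms. Over 12737 genes measured in every channel, 58 were lower and 28 higher for miR-23b, and 87 and 67 for miR-27b. For miR-24 the counts were 896 and 472, and for miR-145 they were 228 and 396. The arrays of miR-23b, miR-24 and miR-27b lay on 1 slide and that of miR-145 on another, and leaving miR-145 out gave 220 lower and 129 higher.

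The control channel bears directly on these counts. The labels do not say whether the miR-23b, miR-24 and miR-27b arrays used the same control RNA. Their Cy3 signals, centred on the median, differed by a median of 0.06 on the log2 scale over 12737 genes measured in every channel, against 0.41 between the miR-23b and miR-145 arrays. Of the 173 genes set apart as lower, 106 (61.3%) had a control signal at least 1 higher on the log2 scale on the miR-23b array than the mean of the miR-24 and miR-27b arrays, compared with 2.53% of all genes. Only 56 genes were lower, well above background in both channels and within 1 in the control channel, and 33 were higher on the same terms. Most genes set apart as lower thus had a control signal that the slide's other PC3 arrays did not show, and its part in their ratios was not tested further.

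**Figure D3:**
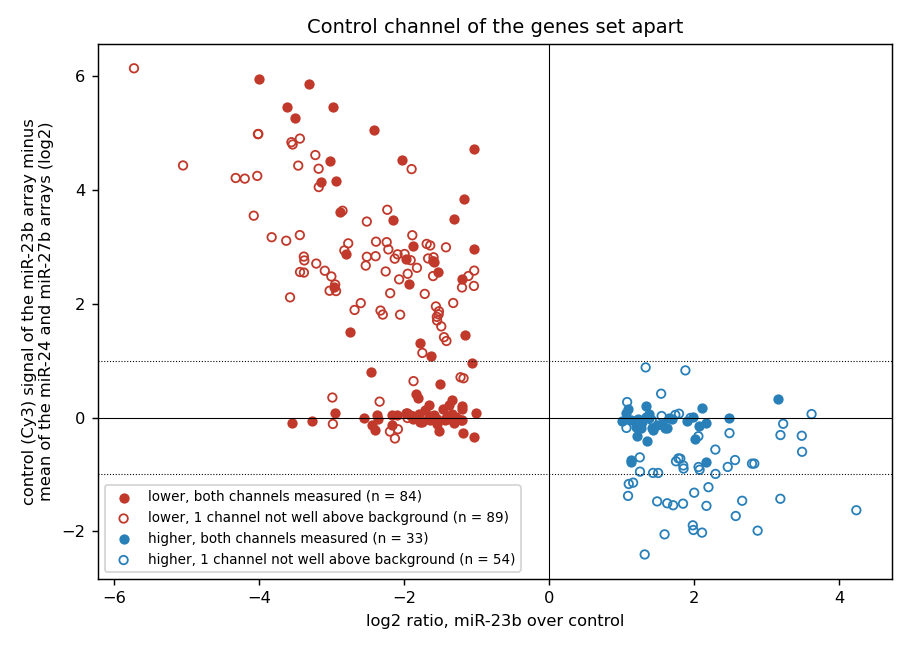
Genes set apart on the miR-23b array by log2 ratio (horizontal axis) and by the difference of the control (Cy3) signal from the mean of the miR-24 and miR-27b arrays (vertical axis, log2, median centred); filled circles are well above background in both channels, dotted lines mark -1 and 1. Of the 173 lower genes in red, 106 lie at or above 1 on the vertical axis, while the 33 higher genes with filled circles all lie within 1.

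Of the 15 lowest genes set apart and measured in both channels, 12 were of that kind. LOC400622 had a control signal of 382 here and 8.36, 7.02 and 6.04 on the miR-24, miR-27b and miR-145 arrays, for a log2 ratio of -3.999 ± 0.44. METTL21C, OR5D13, F13A1, SP140, RFX8, CD40, C1QTNF5, APOC3, NPAP1L, RAB42 and SSR3 followed the same pattern, with ratios from -3.61 to -2.75. CD40, a receptor of B cells and epithelia, was at -2.98 ± 0.35, but its other probe was at 1.87. SSR3, a subunit of the translocon-associated complex, had a control signal of 1940 here and 955, 758 and 920 on the other arrays. Of these 15 genes, 13 rested on a single spot, as did 64.8% of all genes measured. The remaining 3 had like control signals. MAP7D2, a microtubule-associated protein, was at -3.54 ± 0.40 with a second probe at -2.21, and had -0.13, -2.49 and -1.77 on the miR-24, miR-27b and miR-145 arrays. C9orf152 was at -3.28 ± 0.40 and SCARNA13, a small Cajal body RNA, at -2.95 ± 0.35. Neither MAP7D2 nor C9orf152 stood well above background in a channel of the miR-145 array, where their control signals were 28.9 and 11.2. With normexp and loess the ratios of these 15 genes ran from -2.51 to -0.895, APOC3 being the one above -1.

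The 56 genes with like control signals, named in the following after their values were seen, included several with bright and concordant probes. FTH1, the heavy chain of ferritin, was at -2.46 ± 0.31 and its 3 probes lay between -2.62 and -2.46, with 0.72, -1.42 and -0.03 on the miR-24, miR-27b and miR-145 arrays. Its control signal was 0.80 above the mean of the slide's other miRNA arrays. LDHB, a subunit of lactate dehydrogenase, was at -1.98 ± 0.27 with its other probe at -1.89, and had -0.45, -0.37 and -0.26. HDDC2 was at -1.76 ± 0.26 with 3 probes from -2.27 to -1.57. LBR, the lamin B receptor, was at -2.16 ± 0.29, against -0.65, -0.88 and -0.78. By the rule, each of these was lower here than on the other 3 arrays. GGCT, an enzyme of glutathione turnover, was at -2.37 ± 0.30, but its 3 probes reached from -2.37 to -0.04.

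Further genes of the 56 are given as single values, with no count behind any shared role. SEC23A, a coat protein of vesicles leaving the endoplasmic reticulum, was at -1.79 ± 0.26, with 0.42, 0.63 and 0.01 on the miR-24, miR-27b and miR-145 arrays. MCFD2, a cofactor for the export of coagulation factors, was at -1.43 ± 0.24 with its other probe at -0.59, and held a 7-base match. RCN1, a calcium-binding protein of the same compartment, was at -2.10 ± 0.28. OXCT1, which activates ketone bodies, was at -1.78 ± 0.26, PRDX3, a mitochondrial peroxiredoxin, at -1.64 ± 0.25 and NDUFC1, a subunit of complex I, at -1.72 ± 0.26. COX17, a copper chaperone of cytochrome oxidase, was at -1.41 ± 0.24. LIPA, the lysosomal acid lipase, was at -1.59 ± 0.25 and SMS, spermine synthase, at -1.64 ± 0.25. Each of these had values above -0.7 on all 3 other arrays.

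Class I HLA genes, which encode the heavy chains that present peptides to T cells, were mostly lower, and are also named after their values were seen. HLA-B, HLA-C, HLA-F, HLA-G and HLA-J were at or below -1. HLA-B was at -1.96 ± 0.27 with 3 probes from -2.21 to -1.96, and had 0.53, -0.18 and 3.90 on the miR-24, miR-27b and miR-145 arrays. HLA-C was at -1.91 ± 0.27, with 0.58, -0.12 and 4.04. The 2 probes of HLA-F lay at -1.22 and 1.98. HLA-E was at -0.32 ± 0.21. These genes are near-identical in sequence, so their probes can share transcripts and do not count as independent genes. B2M, the light chain they share, was at -0.42 ± 0.21, and TAP1, the peptide transporter, at -0.54 ± 0.21. HLA-J, a pseudogene of the family, held the 7-base match printed above and was at -1.68 ± 0.26.

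**Figure D4:**
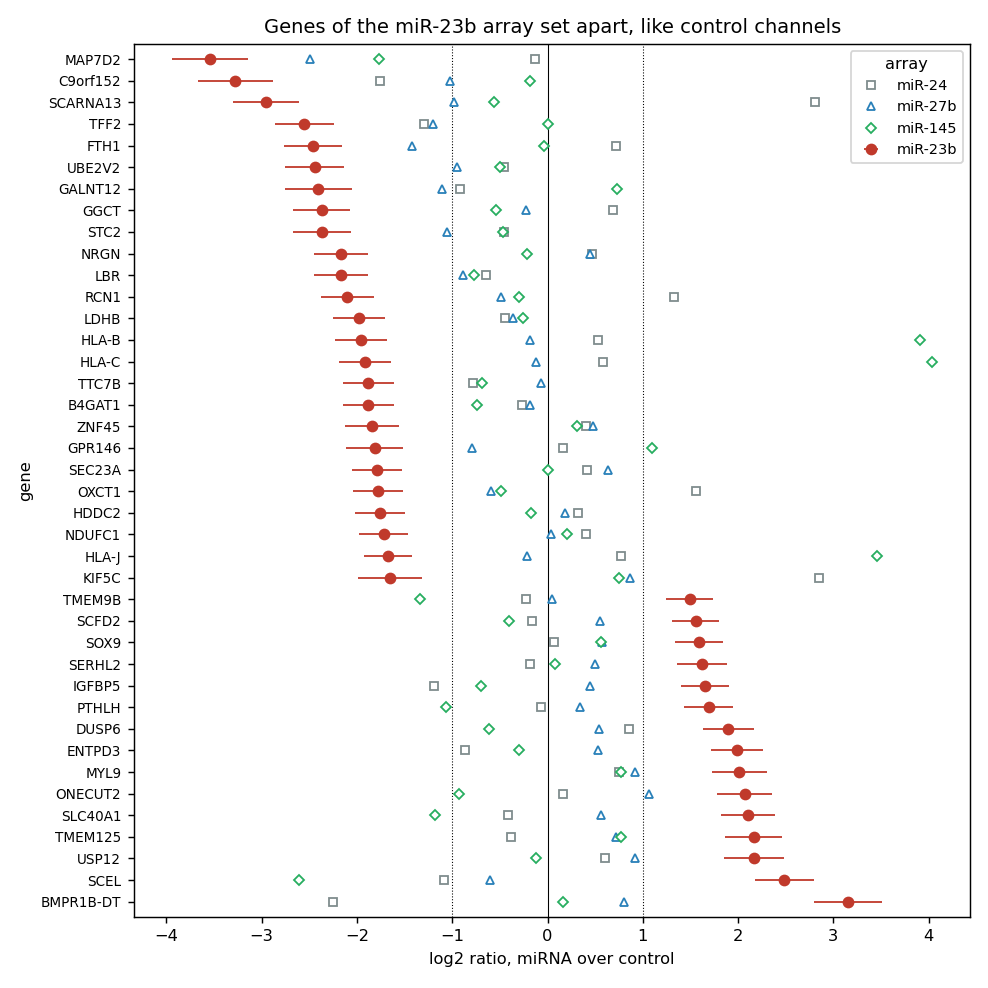
Log2 ratio of miRNA over control (horizontal axis) for the 25 lowest and 15 highest genes (vertical axis) set apart on the miR-23b array, well above background in both channels and with a control signal within 1 (log2) of the slide's other miRNA arrays. Filled red circles are the miR-23b array with the software's error and open symbols the other PC3 arrays; the red values run from -3.54 for MAP7D2 to 3.15 for BMPR1B-DT and by the rule lie outside the open symbols of their row.

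All of the 15 highest genes set apart had control signals within 1 of the slide's other miRNA arrays, and 9 rested on a single spot. BMPR1B-DT, a noncoding transcript, was at 3.15 ± 0.36 with a control signal of 104. SCEL, a protein of the epithelial envelope, was at 2.49 ± 0.31, with -1.08, -0.60 and -2.61 on the miR-24, miR-27b and miR-145 arrays. SLC40A1, the iron exporter ferroportin, was at 2.10 ± 0.29, with -0.41, 0.56 and -1.18. DUSP6, a phosphatase that turns off ERK, had signals of 4310 in the control and 16000 after miR-23b, a log2 ratio of 1.90 ± 0.27, against 0.86, 0.54 and -0.61. IGFBP5, a binding protein of insulin-like growth factors, was at 1.65 ± 0.25 (control signal 1600), with -1.20, 0.45 and -0.70. PTHLH, the parathyroid hormone-related protein known from bone metastasis, was at 1.69 ± 0.26, with -0.07, 0.34 and -1.07. SOX9, a transcription factor of prostate progenitors, was at 1.59 ± 0.25 and had 0.06, 0.57 and 0.57. ONECUT2, a transcription factor, was at 2.07 ± 0.29 and MYL9, a myosin light chain, at 2.01 ± 0.29. USP12, TMEM125, ENTPD3, SERHL2, SCFD2 and TMEM9B made up the rest, with ratios from 1.49 to 2.17. Each of the 15 had 1 measured probe. With normexp and loess their ratios ran from 0.969 for USP12 to 2.21 for BMPR1B-DT.

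Across 18 further lists, medians on the miR-23b array lay between -0.35 and 0.35, and none was past 0.5 there. The lists hold processes in which reported miR-23b targets act, the cell cycle, stress and interferon responses, and reference genes. Shares of all genes to set beside the counts below are 14.4% at or below -0.5 and 18.8% at or above 0.5. Of 29 S phase genes, 10 were at or above 0.5 and none at or below -0.5, with a median of 0.35 here and 0.55, 1.05 and -0.32 on the miR-24, miR-27b and miR-145 arrays. UHRF1, which maintains DNA methylation, was at 1.84 ± 0.27, with 2 probes at 1.79 and 1.84, and at 3.43 on the miR-27b array. TYMS, thymidylate synthase, was at 0.97 ± 0.22, and E2F2 and POLE2 both at 0.92. Of 26 G2 and mitosis genes, 6 were at or above 0.5, near the share of all genes, and none at or below -0.5, with a median of 0.26 here and 0.88, 1.05 and -0.78 on the other arrays. BIRC5, survivin, was at 1.41 ± 0.24, and KIF20A, a mitotic kinesin, at 0.81 ± 0.22. Both medians were above that of all genes here and higher still on the miR-24 and miR-27b arrays.

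Among G1 regulators (19 genes, median 0.24), CDK6 was at 1.74 ± 0.26 and CCND1, cyclin D1, at -1.02 ± 0.22. CDK6 had 2.12, 0.73 and -1.24 on the miR-24, miR-27b and miR-145 arrays, and CCND1 had -0.93, 0.17 and -0.43. E2F4 was at 0.79 ± 0.22. The kinase and its cyclin partner therefore lay on opposite sides of 0.

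**Figure D5:**
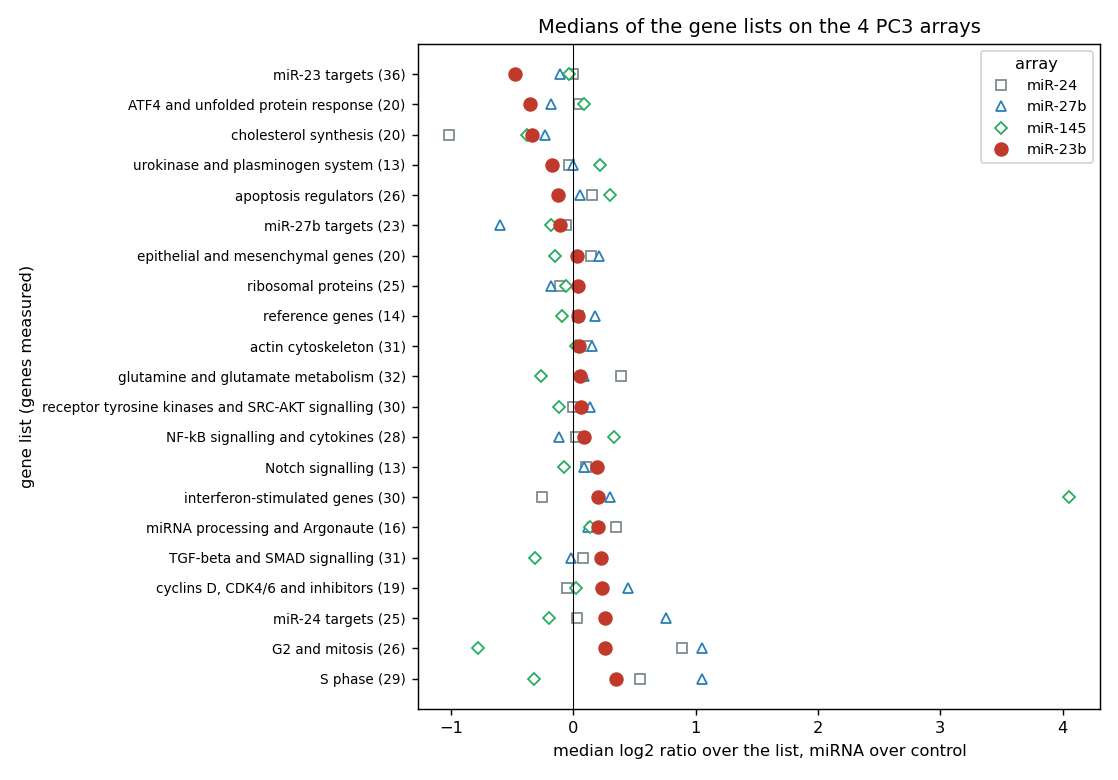
Median log2 ratio of miRNA over control (horizontal axis) for each gene list (vertical axis, number of genes measured in brackets) on the 4 PC3 arrays; filled red circles are the miR-23b array. The miR-23 target list is lowest on the miR-23b array at -0.48 and the S phase list highest at 0.35; the interferon list reaches 4.06 on the miR-145 array only.

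The lowest medians among these lists were those of endoplasmic reticulum stress and sterol synthesis. Of 20 genes of ATF4 and the unfolded protein response, 9 were at or below -0.5, against 14.4% of all genes, and none at or above 0.5, with a median of -0.35, and 0.04, -0.18 and 0.08 on the miR-24, miR-27b and miR-145 arrays. VLDLR, a lipoprotein receptor, was at -1.45 ± 0.26 but at -0.76 with normexp, DDIT4, an inhibitor of mTOR, at -1.11 ± 0.23, and HSP90B1, a chaperone, at -1.07 ± 0.23 with its other probe at -1.12. PDIA4, a disulfide isomerase, was at -0.83 ± 0.22. Of 20 cholesterol genes, 8 were at or below -0.5 here, against 14.4% of all genes, with a median of -0.34. On the miR-24, miR-27b and miR-145 arrays their medians were -1.01, -0.23 and -0.38. There 14, 8 and 9 of them were at or below -0.5, against 26.1%, 15.7% and 19.5% of all genes. CYP51A1 and SQLE, enzymes of the pathway, were at -1.05 ± 0.23 and -0.98 ± 0.22, SCD, a fatty acid desaturase, at -0.97 ± 0.22, and SREBF2, which switches the pathway on, at -0.85 ± 0.22. The stress list was lowest on the miR-23b array and the cholesterol list on the miR-24 array.

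In glutamine and glutamate metabolism (32 genes, median 0.06), 7 genes (21.9%) were at or below -0.5 and 3 at or above 0.5, against 14.4% and 18.8% of all genes. GFPT2, which uses glutamine to make hexosamines, was at -1.75 ± 0.26, and had 0.16, -1.52 and -0.14 on the miR-24, miR-27b and miR-145 arrays. GPT2, a mitochondrial alanine transaminase, was at -1.61 ± 0.25, with 0.52, -1.89 and -0.53. PPAT, the entry enzyme of purine synthesis, was at -1.56 ± 0.25 with its other probe at -0.93, and PFAS of the same pathway at 0.76 ± 0.25. GFPT2 and GPT2 were low after miR-23b and miR-27b alike.

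In the urokinase and plasminogen system (13 genes, median -0.18), TFPI2, a protease inhibitor, was at -1.23 ± 0.23, with -0.31, 0.45 and 1.30. PLAUR, the urokinase receptor, was at 0.61 ± 0.21. Among TGF-beta and SMAD genes (31, median 0.23), 10 were at or above 0.5 and 2 at or below -0.5, against 18.8% and 14.4% of all genes. CCN2, a matricellular target of TGF-beta, was at 2.43 ± 0.31, but at 4.75, 1.997 and 0.90 on the other arrays. ID3 was at 1.08 ± 0.23, or 0.95 with normexp, and BAMBI, a decoy receptor, at 0.74 ± 0.22. CCN2 was higher on every array, and on miR-24 more than on miR-23b.

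Of 28 genes of NF-kB signalling, 7 were at or below -0.5 and 4 at or above 0.5, against 14.4% and 18.8% of all genes. BIRC3, an inhibitor of apoptosis induced by NF-kB, was at -1.48 ± 0.25, with -1.92, -1.50 and 1.83 on the miR-24, miR-27b and miR-145 arrays. CHUK, a kinase of the pathway and a listed miR-23 target, was at -0.86 ± 0.22, with 0.21, 0.41 and -0.34, and NFKBIE, an inhibitor, was at -0.92 ± 0.22. BIRC3 was low on the miR-23b, miR-24 and miR-27b arrays, while CHUK was low on the miR-23b array.

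Of 30 genes of receptor kinases and SRC-AKT signalling (median 0.06), 8 (26.7%) were at or below -0.5 and 7 at or above 0.5, against 14.4% and 18.8% of all genes. AXL, a receptor kinase, was at 3.60 ± 0.39, the highest of them, and at 1.37, 4.03 and 2.21 on the miR-24, miR-27b and miR-145 arrays. YES1, a kinase related to SRC, was at -1.38 ± 0.24, with -0.76, 0.30 and -0.67. AXL was thus higher after each miRNA, whereas MET was lower after each. Among 31 genes of the actin cytoskeleton (median 0.04), 1 was at or below -0.5 and 4 at or above 0.5. ARHGDIB, an inhibitor of small GTPases, was at 1.94 ± 0.27 and PAK1 at 1.08 ± 0.23 (0.73 with normexp), while PAK2 was at -0.83 ± 0.22 with 1.06, 0.61 and -0.73 on the other arrays.

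Epithelial and mesenchymal genes (20, median 0.03) held 4 at or below -0.5 and 3 at or above 0.5. CLDN1, a tight junction protein, was at -1.52 ± 0.25 and at -3.00 on the miR-27b array, and OCLN, another, at -1.07 ± 0.40 but at -0.28 with normexp. SPARC, a matrix protein, was at 0.83 ± 0.22. In the Notch list (13 genes, median 0.19), RBPJ, its transcription factor, was at -0.83 ± 0.22, LFNG at -0.73 ± 0.23 and NOTCH3 at 0.64 ± 0.26.

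Apoptosis regulators (26, median -0.13) had 5 genes on each side of 0.5, with BAK1, a pore-forming BCL2 relative, at 1.34 ± 0.24 and FAS, a death receptor, at 1.41 ± 0.31, or 0.52 with normexp. FAS was at 2.98, 2.15 and 3.11 on the other arrays, so miR-23b gave its smallest value. Interferon-stimulated genes (30) had a median of 0.20 on the miR-23b array and 4.06 on the miR-145 array. IFI44L was at -2.18 ± 0.29, with -2.03, -2.65 and 3.88 on the miR-24, miR-27b and miR-145 arrays. OASL was at 1.61 ± 0.27, MX2 at -1.27 ± 0.27 and IFITM1 at 1.02 ± 0.23, and with normexp these were 0.88, -0.62 and 0.80. The other probe of MX2 was at -0.28 and that of IFITM1 at 1.19. A high interferon list of the kind on the miR-145 array was thus not seen on the miR-23b array.

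Lists that serve as references lay near 0. Of 25 ribosomal protein genes, none was past 0.5 on the miR-23b array, their range was -0.22 for RPL3 to 0.42 for RPL15, and RPL5 and RPL23 were both at 0.35. Of 14 reference genes of real-time PCR, TFRC, the transferrin receptor, was at -1.003 ± 0.22, PGK1 at -0.91 ± 0.22, GAPDH at -0.51 ± 0.21 and B2M at -0.42 ± 0.21. TFRC had 1.14, 0.11 and -0.76 on the miR-24, miR-27b and miR-145 arrays and PGK1 had -2.16, -0.66 and 0.04, so neither was steady across these arrays. Among 16 genes of miRNA processing (median 0.20), DICER1 was at 0.80 ± 0.22, TARBP2 at 0.68 ± 0.21, TNRC6B at -0.73 ± 0.22 and PRKRA at -0.61 ± 0.21.

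Of 7073 probes for long intergenic noncoding RNAs, 3660 were kept, by their signal on the miR-23b array alone. On the miR-23b array 163 of them (4.45%) were at or below -1 and 290 (7.92%) at or above 1, against 5.22% and 6.04% of all genes. Of the 3660, 50 lower and 52 higher met the rule for being set apart, beside 1.16% and 0.583% of all genes. With another array in first place the rule gave 66 and 83 for miR-24, 22 and 43 for miR-27b, and 50 and 59 for miR-145. Among the 2626 well above background in both channels of the miR-23b array, 87 were lower there and 37 higher. Most of the higher ones were thus dim in a channel. These probes carry coordinates but no gene symbol and are not named.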

How the data were processed

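The authors hybridised Cy3 (control miRNA) and Cy5 (miR-23b) labelled PC3 RNA to a 2-colour array and extracted spots with Agilent Feature Extraction 10.7.3.1, per the submitters' processing notes. The deposited scanner files hold a log10 ratio of Cy5 over Cy3 per spot, background-subtracted and dye-normalized by the software, its error on the log10 scale, and processed, mean and background signal as intensity values. The deposited series value table holds the same log10 ratios, and was the same on every feature.

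Control and flagged spots were left out, the rest averaged per probe and multiplied by 3.3219 to give log2 ratios. Probes were named through RefSeq (29580 of 42405 matched 20889 genes), and 26475 probes were kept. A gene took its brightest kept probe, with at least 0.5 of the probe's spots well above background in either channel of the miR-23b array. Only the number of spots limits the precision given here, and no depth applies. Calls are by size alone. Named genes were the 15 lowest and 15 highest set apart and measured in both channels, the 10 lowest and 5 highest miR-23 targets with PLAU, MET, SRC and AKT2, up to 4 members farthest from 0 per pathway list, host genes and markers; others are said to be chosen after their values were seen or illustrate a list or sequence. Some members that these rules name are not reported here. Members and lists were chosen with earlier results of these data known. Alternatives were normexp (offset 50) or no background subtraction with loess in limma 3.58.1 (R 4.3.3), median centring, other filters, limits and probe rules; control-channel filters and further seed settings were chosen after seeing the data. Scripts ran in Python 3.11.15 with pandas 2.3.3 and numpy 2.4.6 and were tested on simulated data.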

Additional observations from a re-analysis of the deposited data

How the results depend on the processing

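No paired analysis was possible because each group has 1 array. Of 120 alternatives tried on 27 results, 101 kept the call. Among them was every one tried on the medians of the target lists, pathway lists and seed matches. A median kept its call when it moved by less than 0.212, the median error of a single gene. A median nearer 0 than 0.212 could thus change sign and keep its call, so its direction was not checked. Counts kept their call when they changed by a factor of at most 1.5. The miR-23 target median ran from -0.519 to -0.351 and the 8-base seed median from -0.633 to -0.458. Counts of genes moved more. With normexp 393 genes were lower and 193 higher, and 62 and 10 were set apart. Without background subtraction 437 were lower and 249 higher, and 69 and 10 were set apart. Requiring both channels left 463 higher, and 84 lower and 33 higher set apart. With no filter 1318 were lower. A limit of 0.5 gave 2145 lower and 2808 higher, and a limit of 1.5 gave 327 and 390. Against the mean of the 7 other arrays of the slide, 488 lower and 494 higher were set apart. Besides miR-24 and miR-27b in PC3, these arrays were of other cell lines: FaDu and SAS with si-LAMB3 or wogonin, and SAS with miR-29a. With the control channel within 1, an alternative chosen after seeing the data, 67 lower were set apart. Of 128 named genes, 56 moved beyond the software's error with normexp. Of the 76 at or past 1, none changed sign with normexp, but 18 came to lie under 1. Sign changes with normexp were not counted among the smaller ratios. After subtracting the mean of the miR-24, miR-27b and miR-145 arrays, 20 of the 128 changed sign, 6 of them at or past 1 before. These 6 were CCN2 (to -0.118), CCNG1 (to 0.055), FAS (to -1.334), IFITM1 (to -0.465), OASL (to -0.467) and VEGFC (to 0.367). Each of the 6 had a larger mean of the same sign on those arrays. The causes of the other differences were not tested. Without repeat arrays or exchanged dyes, differences between cultures and dye bias of a probe cannot be told apart from the miRNA, and dim probes depend most on background correction.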
